A study of Homo sapiens with 8 samples.

Results

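The HLA class I antigen presentation genes were taken as 9 genes, HLA-B, HLA-C, HLA-E, HLA-F, B2M, TAP1, TAP2, TAPBP and NLRC5, and described by the PML::RARA Cut&Run peaks at and around them. A peak was chosen when the authors had labelled it with the symbol of 1 of these genes, or when it carried no gene symbol and its centre lay within 20 kb of the centre of such a peak on the same chromosome. This gave 7 peaks of the 15412 in the list, of which 4 were labelled and 3 were not. HLA-E, TAP1, TAP2 and TAPBP had 1 labelled peak each, and HLA-B, HLA-C, HLA-F, B2M and NLRC5 had no row under their symbol.

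Class I molecules carry short peptides from inside the cell to its surface, where cytotoxic T cells and natural killer cells read them. The heavy chain (HLA-B, HLA-C, HLA-E or HLA-F) pairs with the light chain B2M. The TAP1 and TAP2 proteins form the pump that brings peptides into the endoplasmic reticulum, and TAPBP (tapasin) holds an empty class I molecule beside that pump until it is loaded. NLRC5 is a co-activator that has no DNA-binding domain of its own and acts on class I promoters through a set of bound factors that includes RFX, CREB/ATF and NF-Y. Class I promoters are also known targets of interferon-induced IRF factors and of NF-κB. All but B2M and NLRC5 lie in the major histocompatibility complex on the short arm of chromosome 6, the locus known for dense immune genes and for sequences that resemble each other.

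In Cut&Run, an antibody brings a nuclease to a protein in nuclei, and the DNA fragments it cuts out are sequenced. The cells were U937-PR9, a myeloid line that carries the PML::RARA fusion gene of acute promyelocytic leukaemia under a zinc-inducible promoter. Induced cells received 100 μM ZnSO4 and uninduced cells received water, both for 5 h, and 2 replicates of each were profiled with an antibody to PML-RARA and with one to RARA, which makes 8 libraries. The values below come from 1 list, the anti-PML-RARA peaks of induced cells, in which the authors combined the 2 replicates. The peaks of uninduced cells and of the anti-RARA antibody were not analysed here, so no value below compares induced with uninduced cells or separates zinc from the fusion protein. Each peak comes with values for both replicates combined, so neither an error nor a test is given, and differences between peaks are descriptions of this list. Sequencing depth is unknown. The genome build is hg19, called GRCh37 in the reference.

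Each peak has a width in bp, a height (the largest signal within it), a total signal summed over its bases, and an apex, the middle of the stretch at the largest signal. Rank 1 is the highest or widest peak of the list, and a percentage given with a rank is the share of all peaks with a lower value. Start sites are those of GENCODE, and the canonical start site is that of the transcript GENCODE marks as canonical for the gene.

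The HLA-E promoter is shown because it lay under the highest of the 4 labelled peaks. HLA-E is a class I heavy chain known as a ligand of natural killer cell receptors. The 150 bases before its canonical start site, chr6:30457136-30457285, hold no annotated exon and are printed with the CRE core (TGACG, bound by CREB/ATF factors) and both NF-Y cores (ATTGG, read here on the other strand as CCAAT) in capitals.
HLA-E: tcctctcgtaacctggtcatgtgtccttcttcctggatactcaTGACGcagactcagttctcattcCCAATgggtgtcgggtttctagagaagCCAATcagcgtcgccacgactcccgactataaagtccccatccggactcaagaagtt

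The HLA-E peak, chr6:30457016-30458346, covered all of this sequence, and its apex lay 41 bp before the start site of the gene (ENSG00000204592, plus strand, 30457286 to 30461971). Measured to the middle of each motif, the apex was 14 bp from the nearer CCAAT, 41 bp from the other and 64 bp from the CRE core. The peak had a height of 40, which ranked 1901 and was shared with other peaks, 203 in all at that height. It stood above 86.4% of the list. With a width of 1331 bp, rank 3448, it was wider than 77.6% of the peaks, and its total signal of 16131 was above 83.4%. Most of the peak lay downstream of its apex, which was 17.2% of the way along it from the upstream end.

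The CCAAT of the heavy chain genes sits at nearly the same distance from each start site, and it is shown for all 4 of them and for B2M to set the genes with a start-site peak beside those without 1. Each sequence is written on the strand of its gene and the NF-Y core is in capitals.
HLA-B, chr6:31324995-31325024: tatctagagaagCCAATcagcgtcgccgcg
HLA-C, chr6:31239908-31239937: gttctagagaagCCAATcagcgtctccgca
HLA-E, chr6:30457217-30457246: tttctagagaagCCAATcagcgtcgccacg
HLA-F, chr6:29691142-29691171: tttctagagaagCCAATcagtgtcgccgca
B2M, chr15:45003654-45003683: ggccttgtcctgATTGGctgggcacgcgtt

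The first base of this core lay 56 bases upstream of the canonical start site in HLA-B and HLA-C, 57 bases in HLA-E and HLA-F and 49 bases in B2M. The distance from the core to the apex was 14 bp in HLA-E, 27 bp in B2M and 40 bp in HLA-C. HLA-B and HLA-F carried the same core at the same place and had no peak. Over the 200 bases upstream of their start sites, aligned with gaps, HLA-B and HLA-C were 87.7% identical, HLA-B and HLA-F 80.8%, and HLA-E was 67.3 to 68.9% identical to the other heavy chain genes of the set.

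HLA-C had a peak at its start site that the authors left without a symbol and that the rule therefore did not choose. HLA-C (ENSG00000204525, minus strand, chr6:31236526-31239907) is a classical heavy chain read by T cells and by the KIR receptors of natural killer cells. The peak, chr6:31239663-31240093, covered the canonical start site, and its apex lay 14 bp upstream of it and 1 bp upstream of another start site of the gene. It was small, with a height of 22 (rank 9138, above 35.9% of the list), a width of 431 bp (rank 12972, above 15.7%) and a total signal of 3913 (above 22.4%).

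B2M also had a peak at its start site, under the symbol of another gene. B2M (ENSG00000166710, plus strand, chr15:45003556-45011049) and PATL2 run in opposite directions from a common stretch, and they share the peak chr15:45003305-45004448, whose symbol in the list is PATL2. It covered both canonical start sites, with its apex 74 bp upstream of that of B2M and 120 bp upstream of that of PATL2. Its height of 33 ranked 3709 and was above 73.8% of the list, its width of 1144 bp was above 69.3%, and its total signal of 12743 was above 75.1%. A peak between start sites that face away from each other cannot be given to 1 of the genes from its position.

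HLA-B, HLA-F and NLRC5 had no peak over the gene and none with an apex within 3 kb of any of their start sites. From HLA-B (ENSG00000234745, chr6:31321649-31334844), the other classical heavy chain of the set, the nearest apex was 32733 bp away under the symbol of MICA, 21 high and 563 bp wide. HLA-F (ENSG00000204642, chr6:29690552-29706305), a non-classical heavy chain, had its nearest apex 72694 bp away. NLRC5 (ENSG00000140853, chr16:57023397-57117443) had its nearest apex 57410 bp away, in the peak labelled HERPUD1. Within 25 kb of the canonical start sites there were 0 peaks for these 3 genes, 1 for HLA-C, 2 for HLA-E, 3 each for TAP1 and TAP2, and 5 each for B2M and TAPBP. A gene without a peak is one where none passed the authors' threshold in both replicates at this depth, which does not show that nothing was bound.

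**Figure D1:**
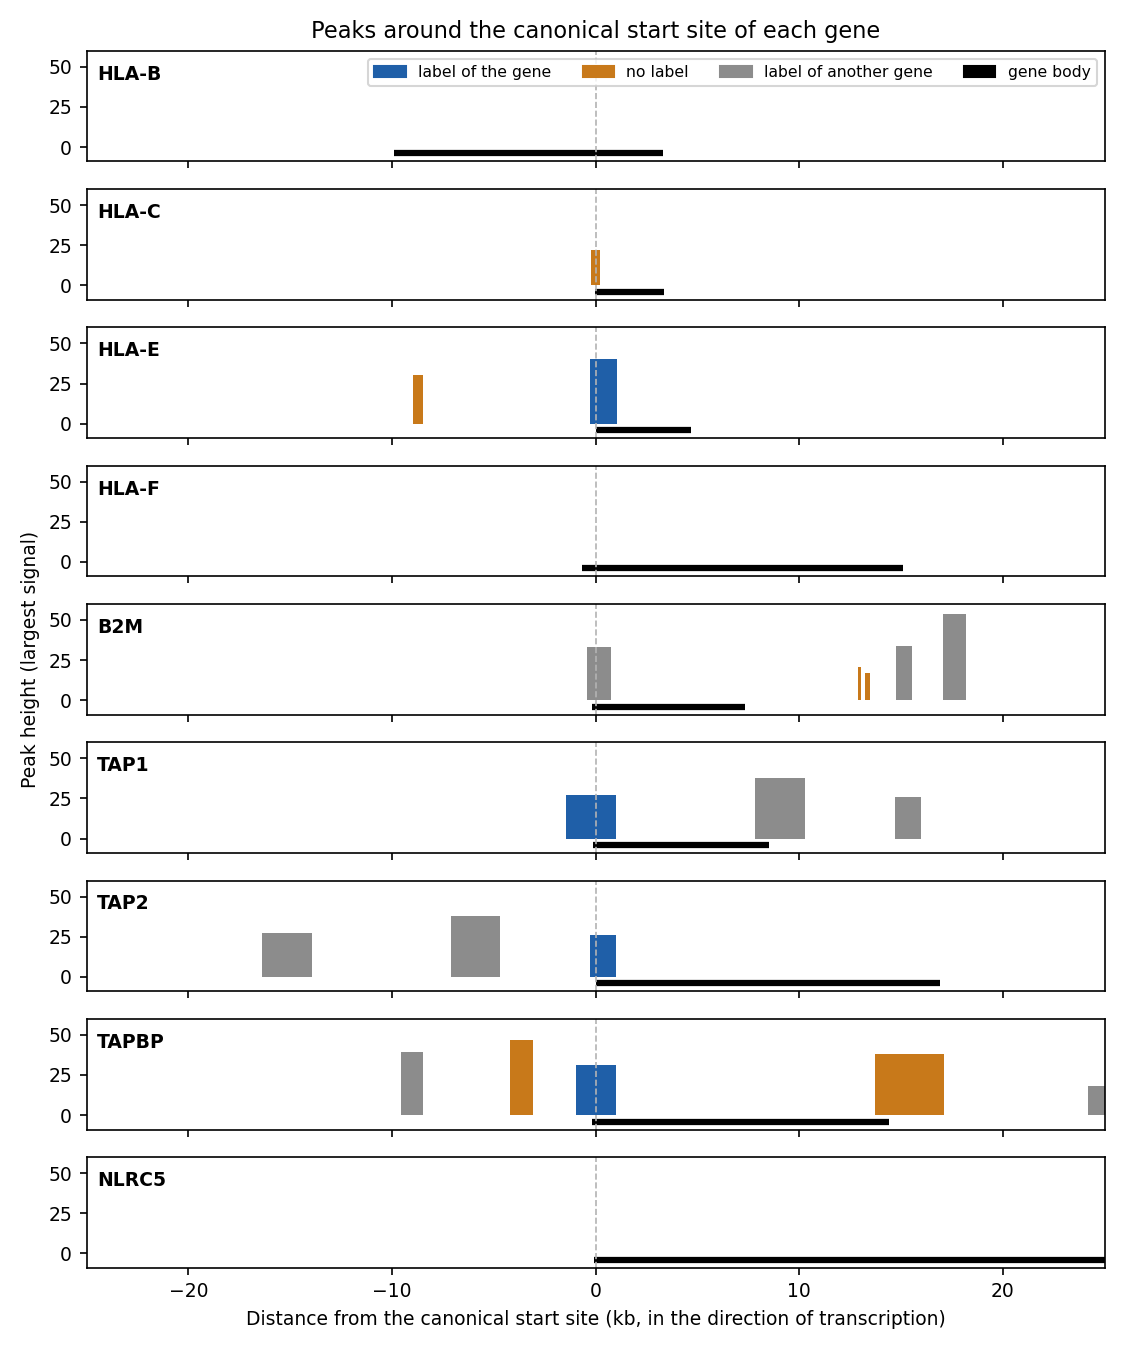
Peaks within 25 kb of the canonical start site of each gene, drawn by distance in kb in the direction of transcription (x axis) and height, the largest signal in the peak (y axis). Bars have the width of the peaks, blue bars carry the label of the gene, orange bars no label and grey bars the label of another gene, and the black line is the gene body. Of the 9 genes, 6 have a bar at position 0, and the panels of HLA-B, HLA-F and NLRC5 are empty.

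The genes of the peptide pump shared 1 stretch of the class II end of the locus. TAP1 (ENSG00000168394, minus strand, chr6:32812986-32821593) and PSMB9, an immunoproteasome subunit that helps to cut the peptides, start close to each other and run apart. The peak labelled TAP1, chr6:32820460-32822919, covered both canonical start sites, with its apex 220 bp upstream of that of TAP1 and 268 bp upstream of that of PSMB9. It was the widest of the 4 labelled peaks at 2460 bp, rank 472 and wider than 96.9% of the list. Its height was 27, rank 6155 and above 56.7%, and its total signal of 20664 was above 90.4%.

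TAP2 (ENSG00000204267, minus strand, chr6:32789610-32806516) had its peak at chr6:32805511-32806785, with the apex 120 bp upstream of the canonical start site. It was the lowest of the 4 labelled peaks, with a height of 26, rank 6677 and above 53.1% of the list. The width of 1275 bp ranked 3816 and was above 75.2%, and the total signal of 10697 was above 67.5%. Between the peaks of TAP2 and TAP1 lay the peak of PSMB8, another immunoproteasome subunit, which was 2431 bp wide with a height of 38. These 3 peaks stood next to the longest stretch without a peak in the region from 29 to 34 Mb of chromosome 6, 641 kb from the peak labelled GPSM3 to that of TAP2. The class II genes HLA-DRA, HLA-DRB1, HLA-DQA1, HLA-DQB1 and HLA-DOB lie within it.

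TAPBP (ENSG00000231925, minus strand, chr6:33267471-33282061) was covered at its 5′ end by the peak chr6:33280869-33282839. This peak was 1971 bp wide, rank 1115 and wider than 92.8% of the list, with a height of 31, rank 4397 and above 68.7%, and a total signal of 19581, above 89.1%. Although it covered the canonical start site, its apex lay 539 bp downstream of it, in intron 2, and 10 bp upstream of a start site of another TAPBP transcript. It was the only labelled peak of the 4 with the apex downstream of the canonical start site.

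Among the 4 labelled peaks the order by height was HLA-E, TAPBP, TAP1, TAP2 and the order by width was TAP1, TAPBP, HLA-E, TAP2. Their median height was 29, beside 25 over all peaks and 26 over the 7169 peaks with any gene symbol. Their median width was 1651 bp, beside 829.5 bp and 1108 bp. All 4 were at or above the median height of the list, as were 56.4% of labelled peaks, and all 4 were at or above its median width, as were 70.9% of labelled peaks. Among the peaks whose width was within 10% of its own, the HLA-E peak was higher than 79.1% of 1591, TAP2 than 38.7% of 1629, TAPBP than 38.1% of 798 and TAP1 than 23.6% of 381. The peaks of TAP1, TAP2 and TAPBP were thus lower than most peaks of like width, and that of HLA-E was higher than most. Mean signal per base was 12.1 for HLA-E, above 80.9% of the list, 9.93 for TAPBP, 8.40 for TAP1 and 8.39 for TAP2.

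**Figure D2:**
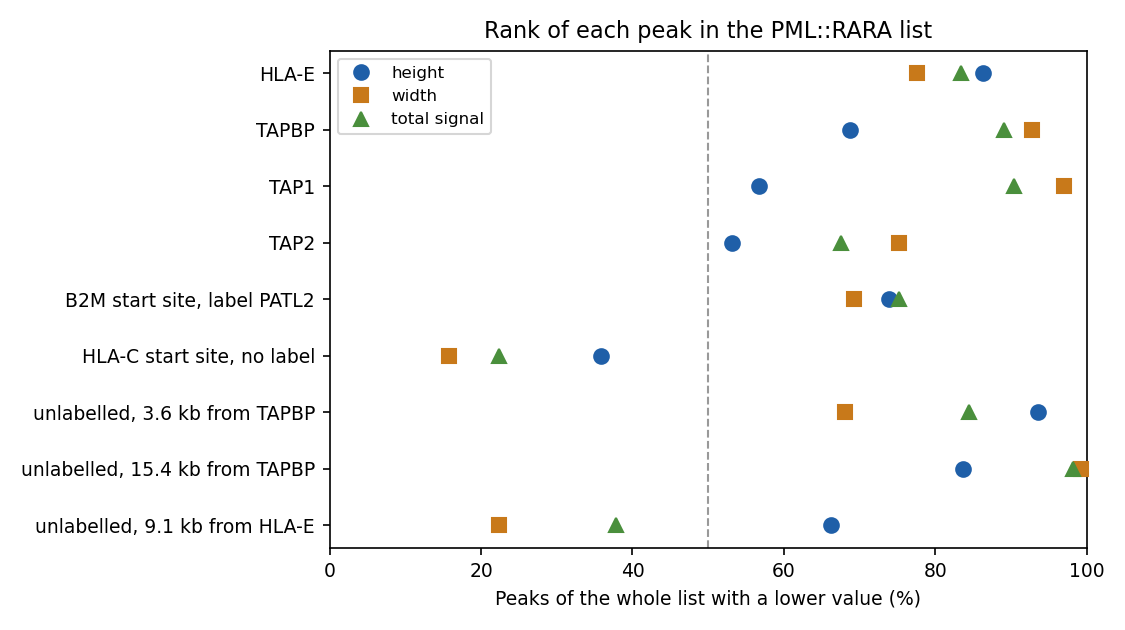
Share of all 15412 peaks with a lower height (blue circles), width (orange squares) or total signal (green triangles), in percent on the x axis, for the 4 labelled peaks, the start-site peaks of B2M and HLA-C and the 3 unlabelled peaks, with the dashed line at 50%. TAP1, TAPBP and TAP2 rank higher by width than by height, HLA-E ranks higher by height than by width, and all 3 values of HLA-C lie below 50%.

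**Figure D3:**
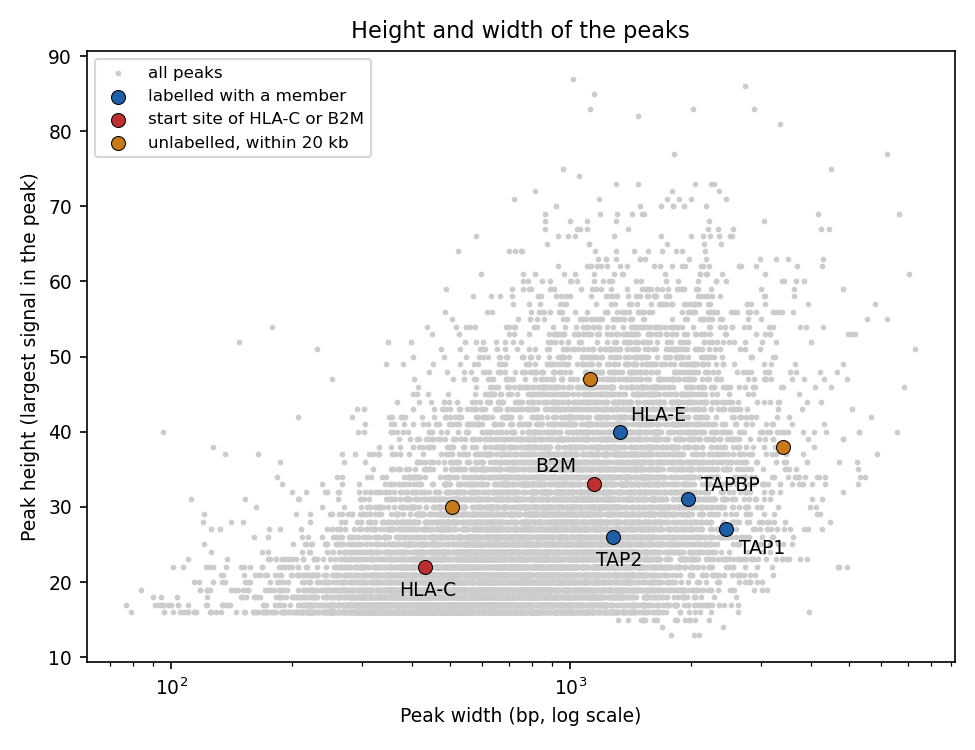
Height (largest signal, y axis) against width (bp, log scale, x axis) of all peaks in grey, with the peaks labelled with a gene of the set in blue, the start-site peaks of HLA-C and B2M in red and the 3 unlabelled peaks in orange. The heights of the coloured points run from 22 for HLA-C to 47 for an unlabelled peak 3.64 kb from TAPBP.

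Of the 3 unlabelled peaks chosen by distance, 2 lay at the start sites of other genes. The first, chr6:33284939-33286058, had its centre 3.64 kb from that of the TAPBP peak and covered the canonical start site of ZBTB22, a zinc finger protein, with the apex 156 bp upstream of it. It was the highest of the 7, with a height of 47 (rank 890, above 93.6% of the list), a width of 1120 bp (rank 4919, above 68.0%) and a total signal of 16670. The second, chr6:33264742-33268148, 15.4 kb from the TAPBP peak, was the widest of the 7 at 3407 bp (rank 123, above 99.2%), with a height of 38 (rank 2313, above 83.6%) and a total signal of 35713 (above 98.2%). Its apex lay 498 bp upstream of the start site of RGL2, a Ral exchange factor, and its edge on the side of TAPBP reached over the 3′ end of that gene. Among all 8243 unlabelled peaks, 11.9% had an apex no farther than 1 kb from the start site of a protein-coding gene.

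The remaining unlabelled peak, chr6:30448299-30448803, lay upstream of HLA-E, 9.13 kb from the HLA-E peak between centres, outside protein-coding genes and 889 bp from the nearest start site of any gene. It was 505 bp wide (rank 11953, above 22.3%) with a height of 30 (rank 4820, above 66.2%). Unlabelled peaks lay within 20 kb of the HLA-E and TAPBP peaks and not of those of TAP1 and TAP2, whereas 29.2% of all labelled peaks had 1 or more at that distance. Just outside the distance, 26.0 kb from the HLA-E peak, was a peak of height 29. Another, chr6:30483775-30484567 at 26.5 kb, had a height of 55, rank 319, and a mean signal per base above 99.9% of the list.

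By symbol, 4 of the 9 genes had a peak, beside 30.0% of 20090 protein-coding genes and 32.4% of the 185 protein-coding genes between 29 and 34 Mb of chromosome 6. By an apex within 1 kb of a start site of the gene itself, 6 of 9 had a peak, beside 39.3% of all protein-coding genes and 53.5% of those in that region. The same 6 genes had a peak over the gene body, beside 45.1%, or an apex within 3 kb, beside 42.1%. With the start-site peaks of HLA-C and B2M counted, the 6 peaks had heights from 22 to 40 and widths from 431 to 2460 bp. The region held 123 of the 943 peaks of chromosome 6, with a median height of 31 and a median width of 1054 bp, and only 5 of the 123 lay between 29 and 30 Mb, where HLA-F is.

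The rest of the pathway was read from lists of 44 other genes. Over all protein-coding genes, 30.0% were labelled, 39.3% had an apex within 1 kb of a start site and 42.1% had one within 3 kb. All 5 genes of the immunoproteasome and its activator (PSMB8, PSMB9, PSMB10, PSME1 and PSME2), which shape the peptides, had an apex within 1 kb of a start site, and 3 were labelled. PSMB9 had no peak of its own, since its peaks within 1 kb were those labelled PSMB8 and TAP1. Of these 5 genes, PSME2 had the highest labelled peak with 50 and PSMB8 the widest. Of 6 genes of peptide trimming and loading, 3 were labelled, and CANX had the highest peak with 57 and CALR the widest with 2301 bp. Both are chaperones of the endoplasmic reticulum that help the heavy chain to fold. ERAP2, a trimming enzyme, and PDIA3, a disulfide isomerase of the loading complex, had no peak within 3 kb.

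Among 14 transcriptional regulators of class I genes, 7 were labelled and 10 had an apex within 1 kb of a start site. IRF1, an interferon-induced activator of class I genes, had the highest labelled peak of this list with 43 and the widest with 2575 bp, and RFXAP and NFKB1 had no peak within 3 kb. Of 8 other class I and class I-like molecules, 4 were labelled and HLA-G, CD1D and HFE had no peak within 3 kb. MICA, a stress-induced ligand of natural killer cells, had the highest and the widest of their labelled peaks with 31 and 563 bp.

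Class II presentation genes, which carry peptides from outside the cell, had the fewest peaks. Of 11, 2 were labelled, and the other 9 had no peak within 3 kb. CD74, the invariant chain of class II molecules, had the higher and wider of the labelled peaks with 26 and 714 bp, and HLA-DMA, which helps to load class II molecules, had the other. From HLA-DRA to the nearest peak edge was 243197 bp.

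**Figure D4:**
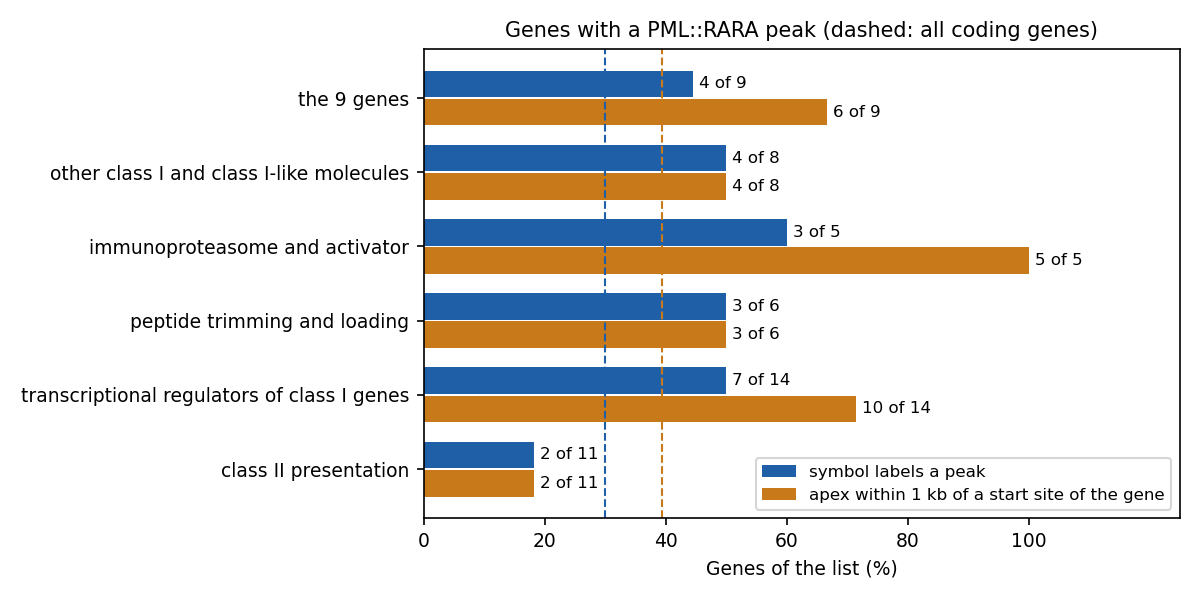
Share of the genes of each list, in percent on the x axis, whose symbol labels a peak (blue) or that have an apex within 1 kb of a start site (orange), with the counts beside the bars. Dashed lines give the shares over all protein-coding genes, 30.0% and 39.3%. The immunoproteasome list reaches 5 of 5 by distance and the class II list is the only 1 with both bars below the dashed lines.

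Sequence was compared next, since the factors that act on class I promoters have known motifs. The search covered both strands of the 200 bases upstream of each canonical start site and used 10 motifs. The interferon response element, a pair of GAAA units with any 2 bases between them, was found in 5 of the 9 genes, HLA-F, B2M, TAP1, TAP2 and TAPBP, and in 2.20% of the 19812 protein-coding genes searched. In B2M, TAP1 and TAPBP, 2 overlapping matches were counted. As only full matches to the pattern were counted, an interferon element that departs from it would be missed. Whether HLA-B, HLA-C, HLA-E or NLRC5 holds such an element was not tested. For each of these genes, 1 match is printed on the strand of the gene with the motif in capitals.
HLA-F, chr6:29691045-29691074: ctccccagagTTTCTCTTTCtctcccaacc
B2M, chr15:45003567-45003596: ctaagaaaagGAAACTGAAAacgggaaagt
TAP1, chr6:32821590-32821619: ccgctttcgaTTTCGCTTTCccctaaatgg
TAP2, chr6:32806555-32806584: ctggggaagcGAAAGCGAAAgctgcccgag
TAPBP, chr6:33281856-33281885: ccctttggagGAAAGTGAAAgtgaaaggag

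These elements began 156 bases upstream of the start site in HLA-F, 138 in B2M, 128 in TAP1, 58 in TAP2 and 20 in TAPBP. Measured to the apex, the printed element lay 59 bp away in B2M, 66 bp in TAP2, 96 bp in TAP1 and 555 bp in TAPBP, while HLA-F had no peak. Genes with and without an apex within 1 kb held the element in 1.72% and 2.51% of cases over all protein-coding genes.

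The CRE core (TGACG) was found upstream of HLA-B, HLA-C, HLA-E, B2M and TAP2, beside 22.6% of all genes, and the NF-Y core (ATTGG) upstream of HLA-B, HLA-C, HLA-E, HLA-F and B2M, beside 30.3%. In B2M the CRE core was 1 bp from the apex. The SP1 core (GGGCGG) was found in TAP1, TAP2, TAPBP and NLRC5, beside 56.5%, and so in none of the heavy chain genes or B2M. The ETS core (GGAAGT) was found in HLA-B and TAP1, beside 18.1%. The loose NF-κB pattern, GGG followed after any 5 bases by CC, matched 7 of the 9, all but HLA-E and HLA-F, beside 60.5%. Nuclear receptor half-sites, the units of retinoic acid response elements, were found upstream of none of the 9 as AGGTCA, beside 7.81%, or as GGGTCA, beside 9.61%. The X1 box pattern of RFX was also found in none, beside 0.601%. Only full matches to this pattern were counted, so an X1 box that departs from it would be missed. Whether these promoters hold such a box was not tested.

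The palindromic NF-κB site, printed in capitals for HLA-B, occurred upstream of 8 genes in all, 0.0404%, and HLA-B was 1 of them. It is shown because it differs between heavy chain genes that did and did not have a peak. Substitutions are counted from 1 at the 5′ end of the 11-base site, with the base of the palindrome first.
HLA-B, chr6:31325113-31325142, no substitution: cgcagcgttGGGGATTCCCCactcccctga
HLA-C, chr6:31240022-31240051, C9T: cgccgcgttGGGGATTCTCCactcccctga
HLA-F, chr6:29691023-29691052, G2A and G4A: ctcagtattGAGAATTCCCCatctccccag

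HLA-B carried the whole palindrome and had no peak. HLA-C, with 1 substitution, had a peak, and HLA-F, with 2, had none. No motif of the 10 was present in all the genes with a start-site peak and absent from all those without.

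**Figure D5:**
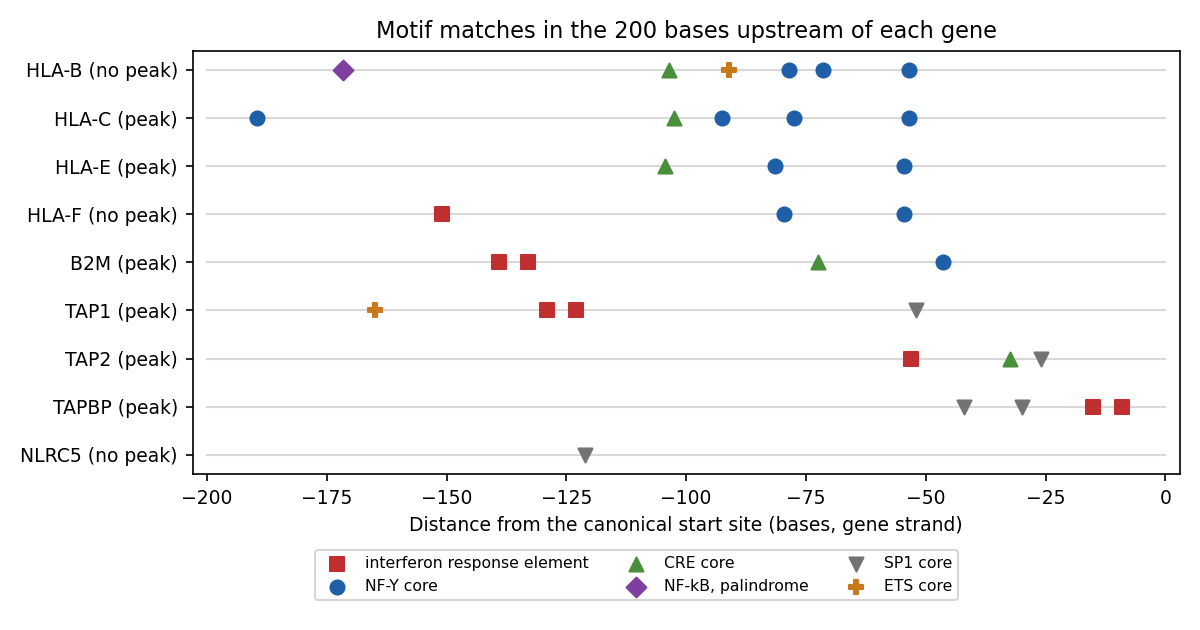
Motif matches in the 200 bases upstream of the canonical start site of each gene, by distance in bases on the gene's strand (x axis), with 1 marker per match and the presence of a start-site peak beside the gene name. The loose NF-κB pattern is not drawn, and the half-sites and the X1 box pattern had no match. The NF-Y cores of HLA-B and HLA-F, which have no peak, stand where those of HLA-C and HLA-E do.

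Within 200 bp of the centres of the 4 labelled peaks, AGGTCA occurred in HLA-E, TAP2 and TAPBP, beside 16.4% of labelled peaks, and GGGTCA in HLA-E alone, beside 21.6%. Within 200 bp of the apex AGGTCA remained in TAPBP alone, since the half-sites of HLA-E and TAP2 lay away from the apex. Over the whole peaks the number of half-sites of either kind was 5 in TAPBP, 3 in HLA-E, 2 in TAP1 and 1 in TAP2. The HLA-C peak held 1 and the B2M peak none. The nearest to the apex are printed for TAPBP, at 76 bp, and HLA-C, at 42 bp, because in the others the distance was 424 bp or more.
TAPBP, chr6:33281378-33281407, plus strand of the chromosome: agctgaggcctgAGGTCActgccggatcta
HLA-C, chr6:31239827-31239856, minus strand of the chromosome: aggccgagatgcGGGTCAtggcgccccgag

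The interferon element occurred within 200 bp of the centre in TAP1 and TAPBP, beside 2.75% of labelled peaks, the ETS core in HLA-E and TAP1, beside 32.0%, and the NF-Y core in HLA-E, TAP1 and TAP2, beside 35.9%. The SP1 core was in TAP1, TAP2 and TAPBP, beside 74.4%, the CRE core in TAP1, beside 37.2%, and the loose NF-κB pattern in HLA-E, TAP1 and TAPBP, beside 84.6%. The palindrome and the X1 box pattern were in none, beside 0.139% and 1.14%. Several of these matches changed with the window. Within 200 bp of the apex the interferon element was in TAP1 and TAP2, beside 3.18%, and the ETS core in TAP1 and TAPBP, beside 36.7%. The CRE core was then in HLA-E, TAP1 and TAP2, beside 39.6%. The SP1 core and the loose NF-κB pattern were in all 4 peaks, beside 76.2% and 83.3%. The NF-Y core was in the same peaks as before, beside 44.1%. A match is a description of the letters in the window, and whether a factor was bound was not measured.

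GC content of the 4 labelled peaks ran from 59.6% in TAPBP to 62.1% in HLA-E, beside medians of 57.8% over all peaks and 62.7% over labelled peaks. Their ratio of observed to expected CpG was 0.538 in TAPBP, 0.559 in TAP2, 0.602 in TAP1 and 0.756 in HLA-E, beside medians of 0.435 and 0.756.

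Because heavy chain genes are alike, reads from 1 can align to another, and the share of 50-base words that occur again elsewhere in the genome was counted. It was 0 in each of the 7 peaks and in the start-site peaks of HLA-C and B2M, beside a mean of 0.0560% over all peaks, of which 2.76% held any such word and 0.0454% held over 10% of them. Around the canonical start sites, in windows of 500 bp on each side with 952 words, HLA-B had 2 repeated words, HLA-C 14, TAP2 20 and HLA-E 47, and the other 5 genes had none. The mean over protein-coding start sites was 3.86%, and 7.36% of them had over 10%. Of the repeated words of HLA-C, 9 lay in HLA-J and 1 in HLA-B. The copies of the 47 words of HLA-E and of the 20 of TAP2 lay outside HLA genes. Of the start sites without a peak, HLA-B therefore had 0.210% repeated words of this length in the primary assembly, and HLA-F and NLRC5 had none. With words of 36 bases the share in these windows was 8.90% for HLA-B, 1.04% for HLA-F and 0 for NLRC5. Over protein-coding start sites the mean was 5.06%. The windows of HLA-C and HLA-E, which had peaks, held 9.42% and 14.6%. Within the peaks themselves the 36-base share was 0 for HLA-C and 1.39% for HLA-E. The length of the aligned reads is not given in the sources used here, and whether reads were lost at HLA-B was not tested. Alternative haplotypes of the locus were not searched, and the alleles of U937-PR9 cells, which can differ from the reference, were not analysed here.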

How the data were processed

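Per the labels and the study's methods, adapters and poor reads were removed with Trimmomatic, Bowtie2 placed the reads on hg19, duplicates were dropped with SAMtools, and blacklisted reads were taken out. SEACR, set to norm union, then called peaks with the paired control as background, and an IDR below 0.05 between the 2 replicates was required. Versions are not given in the sources used here. The authors deposited for each peak a total signal, a score that holds the largest signal (the height) and the width in bp. The content of the first 2 was read from the values, since the total was below height times width in all 15412 peaks. The study's drawn tracks are scaled by library size, but whether either scaling applies to the deposited signal, and whether it is of 1 replicate or of pooled reads, is not given in the sources used here. The label is the gene symbol that the authors gave to a peak whose apex overlapped a promoter in the UCSC known genes of hg19.

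The 9 genes, the lists and the motifs were chosen with earlier results of these data known. Every gene of the set was named. Other pathway genes were named where they held a chosen peak, shared a promoter with a gene of the set, had no peak, or had the highest or widest labelled peak of their list, and other genes only to mark a place or label. Start sites came from GENCODE release 44 mapped to GRCh37 and sequences from the GRCh37 primary assembly. The count of repeated words was tested on simulated sequence and gave the planted numbers. Python 3.11.15, numpy 2.4.6, pandas 2.3.3, pysam 0.24.0, numba 0.67.0, Biopython 1.88, matplotlib 3.10.9 and samtools 1.23.1 were used. Values of some other genes of the lists are not reported here.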

Additional observations from a re-analysis of the deposited data

How the results depend on the processing

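The number of genes of the set with a peak was 4 by symbol, 6 by an apex within 1 or 3 kb or by overlap with the gene, and 4 when peaks below the list's median height, or below its median width, were left out. The number of chosen peaks was 7, 6 within 10 kb and 12 within 50 kb. The median percentile of the labelled peaks by height was 62.7 among all peaks, 57.7 among labelled peaks and 38.8 among the 1001 peaks around each in order of width, which for TAP1 were the 1001 widest of the list. It was 38.4 among peaks within 10% of the width, chosen after seeing the data, and 86.2 by total signal. By width it was 85.2 among all peaks, 76.1 among labelled peaks, 81.5 with peaks under 1 kb apart merged and 76.4 with the start-site peaks of HLA-C and B2M added, an alternative chosen after seeing the data. Of the 40 pairs of a motif and a labelled peak, 18 had a match within 200 bp of the centre, 11 within 100 bp, 20 within 200 bp of the apex and 28 in the whole peak, and AGGTCA was in 3, 0, 1 and 3 of the 4 peaks, beside 16.4%, 8.20%, 16.6% and 42.2% of labelled peaks in these windows. The share of repeated words in the 7 peaks was 0 at 50 and 75 bases and 0.169% at 36 bases. No paired analysis was possible because both replicates are combined in 1 value, which also meant that neither could be left out. Depth per library is unknown, so a gene without a peak may lie below the threshold.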
